A study of Mus musculus with 12 samples.

Results

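The 12 arrays of this mouse iris study fell on both sides of a wide range of rod photoreceptor RNA, and they are described here by that range. The split used the log2 value of Gnat1, the rod transducin alpha subunit, on its brightest probe set. Arrays at 10 or above were called Gnat1-high (7 of 12) and arrays below 10 Gnat1-low (5 of 12). Because a measured value chose the arrays, every difference between them is given as a description with its standard error and with no test. Each of the 4 strains held arrays of both kinds, so strain was kept as a block in every difference.

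All samples were adult iris from mice of 60 days, with 3 arrays per strain and the 4 eyes of 2 animals pooled for each array. C57BL/6J was the reference strain, with 1 Gnat1-high and 2 Gnat1-low arrays. The strain labelled B6-Lystbg-J (called B6-Lyst) carries a mutation of Lyst and had 2 Gnat1-high arrays and 1 Gnat1-low array. The strain labelled B6-(Cg)TyrC-2J (B6-albino) carries a mutation of Tyr and had the same division, 2 Gnat1-high and 1 Gnat1-low. The strain labelled B6.D2(Tryp1-Gpnmb-)/SJ, here called B6-D2 congenic, carries mutations of Tyrp1 and Gpnmb, and it too had 2 Gnat1-high arrays and 1 Gnat1-low array. The mutations are carried in every cell of the animal, no agent was given, and the sex of the mice is not given in the sources used here. The pooled arrays of a strain are labelled biological replicates. Markers of pigmented and smooth muscle cells, which the iris holds, were high on all 12 arrays. Tyrp1, a melanosome enzyme of pigmented cells, lay between 13.15 and 13.67, and Acta2, smooth muscle actin, between 13.21 and 13.95. Such cells are not particular to the iris, so these values do not set it apart from neighbouring tissue.

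Rods detect dim light with a cascade in the outer segment. Activated rhodopsin switches on transducin (Gnat1 with its beta and gamma subunits), transducin relieves the inhibition of a cyclic GMP phosphodiesterase, and the fall in cyclic GMP closes cation channels. Arrestin and guanylate cyclase activators then help to shut the response off and restore the dark state. The iris is not known to hold rods. Its posterior epithelium is a pair of pigmented layers that derive from the optic cup, as do the neural retina and the retinal pigment epithelium, and it is continuous with the ciliary epithelium and the peripheral retina.

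Gnat1 spanned 4.21 log2 units over the 12 arrays, an 18.5-fold range. The Gnat1-low arrays were C57BL/6J replicate 3 at 7.67, B6-D2 congenic replicate 3 at 8.71, C57BL/6J replicate 1 at 8.77, B6-Lyst replicate 1 at 9.21 and B6-albino replicate 2 at 9.23. The Gnat1-high arrays ran from 10.06 in B6-D2 congenic replicate 2 to 11.88 in B6-albino replicate 3, with a median of 11.47. The nearest arrays on each side of the threshold, B6-D2 congenic replicate 2 and B6-albino replicate 2, lay 0.837 apart. With strain as a block, the Gnat1-high arrays stood 2.27 (SE 0.30) above the Gnat1-low arrays, or 4.83-fold, which is the choice itself and not a result.

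**Figure D1:**
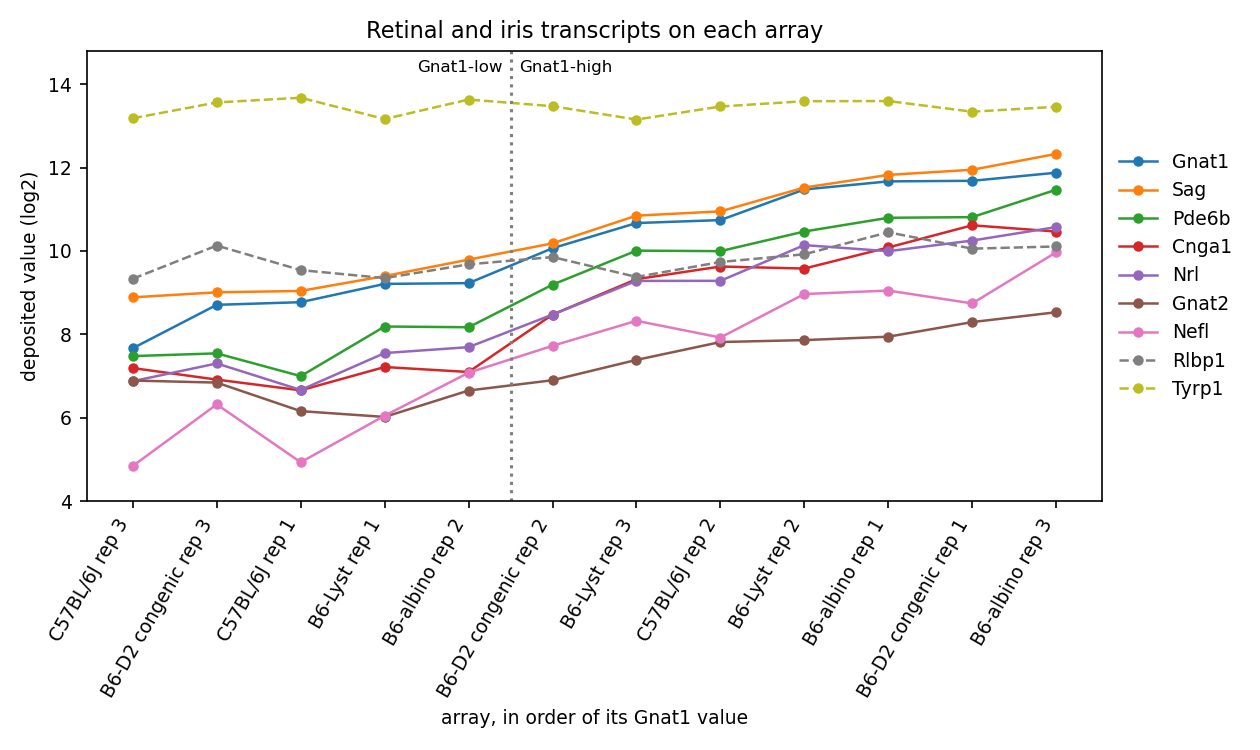
Deposited log2 values (y axis) of 9 transcripts on each array, with the 12 arrays in order of their Gnat1 value (x axis) and a dotted line at the division between Gnat1-low (left) and Gnat1-high (right). Solid lines are retinal neuron genes and dashed lines are Rlbp1 and Tyrp1; Tyrp1 stays between 13.15 and 13.67 on all arrays while Sag, Pde6b, Cnga1, Nrl, Gnat2 and Nefl follow the order of Gnat1 with small departures.

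Of 13190 genes tested, 83 (0.629%) were higher by the rule used here, a difference of at least 1 log2 unit (2-fold) together with every Gnat1-high array above every Gnat1-low array of its own strain. By the mirror rule 0 genes were lower (0%), and no gene had a difference of -1 or less, whatever its order within strains. The median difference over all genes tested was -0.06. Of the 83 genes, 39 (47%) were on 8 lists of retinal neuron genes, which hold 86 of the genes tested, so 45.3% of those list genes were higher against 0.629% of all genes. The arrays were chosen by a retinal gene, so this share is a description of them and supports nothing about the choice. In 27 of the 83 genes the mean of the Gnat1-low arrays lay under the filter value of 5.65, so that their presence among the genes tested came from the Gnat1-high arrays. In a sample of whole tissue, fewer cells of a type and less RNA per cell cannot be told apart.

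**Figure D2:**
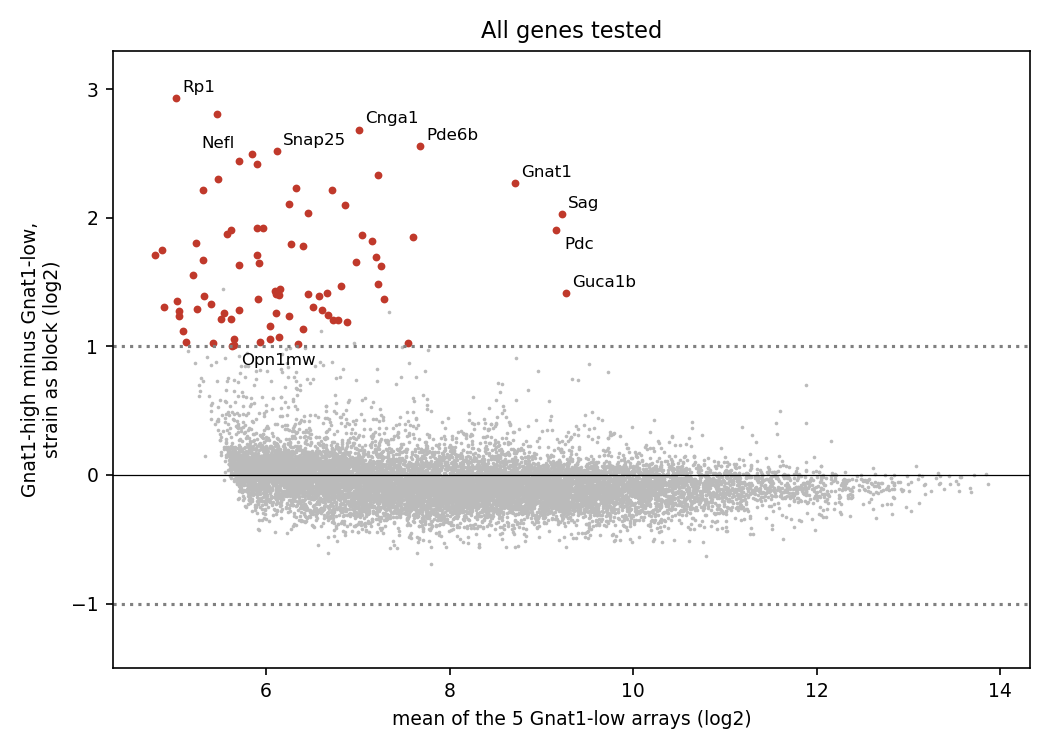
Each point is 1 of 13190 genes, with the mean of the 5 Gnat1-low arrays on the x axis (log2) and the Gnat1-high minus Gnat1-low difference with strain as a block on the y axis (log2). Red points are the 83 higher genes, the dotted lines lie at differences of 1 and -1, and no point lies below the lower line.

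Most genes of the rod phototransduction cascade were higher on the Gnat1-high arrays. Of 24 genes on the list, 21 were named on the array and 19 passed the filter on low values, and 14 of these were higher. Their differences, over all 19, ran from -0.00 to 2.69 with a median of 1.71, where the median of all genes was -0.06. The 19 include Gnat1, which chose the arrays; without it 13 of 18 genes were higher with a median of 1.71. Averaged over those 18 genes, the Gnat1-low arrays had list levels between 7.41 and 7.78 and the Gnat1-high arrays between 8.29 and 9.75, so that the kinds did not overlap.

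Among the genes that carry the light signal, the channel subunit gene Cnga1 differed most. Cnga1 read 6.66, 6.91, 7.10, 7.19 and 7.21 on the 5 Gnat1-low arrays and from 8.47 (median 9.63) to 10.61 on the Gnat1-high arrays. The Gnat1-low arrays thus lay within a narrow band well under every Gnat1-high array, and the difference was 2.69 (SE 0.32), or 6.44-fold. Pde6b, the catalytic beta subunit of the rod phosphodiesterase, read 6.996, 7.48, 7.54, 8.17 and 8.19 on the Gnat1-low arrays and 9.19 (median 10.47) to 11.47 on the Gnat1-high arrays, a difference of 2.56 (SE 0.28). Its partner subunits were higher by less, with 1.65 (SE 0.26) for the inhibitory gamma subunit Pde6g and 1.24 (SE 0.22) for the catalytic alpha subunit Pde6a. Gngt1, the gamma subunit of rod transducin, stood 2.30 (SE 0.34) above, and 3 of its 4 probe sets were higher, by 1.47 to 2.30. Slc24a1, the exchanger that returns calcium from the rod outer segment, differed by 2.21 (SE 0.29).

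Several genes that regulate the light response, shut it off or restore the dark state followed the same arrays. Rgs9 and Gnb5, given below, did not meet the rule, and Grk1 lay below the filter. Sag, rod arrestin, read 8.89, 9.01, 9.04, 9.40 and 9.79 on the Gnat1-low arrays and 10.18 (median 11.52) to 12.33 on the Gnat1-high arrays. No Gnat1-low array reached the lowest Gnat1-high array, and the difference was 2.03 (SE 0.27), or 4.08-fold. Rcvrn, the calcium sensor recoverin, differed by 2.04 (SE 0.33), and its Gnat1-low arrays spread over only 6.30 to 6.599. Pdc (phosducin, which binds transducin beta and gamma subunits) differed by 1.91 (SE 0.24). Guca1a and Guca1b, the activators of the rod guanylate cyclase, differed by 1.82 (SE 0.27) and 1.42 (SE 0.23). Rgs9bp, the membrane anchor of the transducin GTPase accelerator, differed by 1.70 (SE 0.28), and Rdh12, a retinal reductase of photoreceptors, by 1.71 (SE 0.29). These values are those of each gene's brightest probe set. A second probe set that passed the filter did not meet the rule for Pde6g (0.83), Guca1b (0.78) and Rdh12 (0.68).

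The other 5 genes of the list that passed the filter did not meet the rule. Cngb1, the second channel subunit, lay 0.99 (SE 0.17) above and was ordered in all 4 strains, so it missed the rule by its size alone. Gnb5 (the beta subunit that partners Rgs9) was also ordered in all 4 strains with a difference of 0.38. Abca4, the retinoid flippase of photoreceptor discs that the retinal pigment epithelium also makes, differed by 0.32 (SE 0.24), with the Gnat1-low arrays at 8.73, 9.68, 9.93, 9.94 and 10.64 and the Gnat1-high arrays at 9.23 (median 10.09) to 10.67. Those ranges overlapped almost entirely, and in B6-D2 congenic the Gnat1-low array was the highest of the 3. Gnb1, a transducin beta subunit that many cell types use, differed by 0.23. Rgs9 read 6.99 to 7.29 on the Gnat1-low arrays and 6.94 to 7.29 on the Gnat1-high arrays, a difference of -0.00 (SE 0.09). Gucy2e and Grk1, a photoreceptor guanylate cyclase and rhodopsin kinase, lay below the filter with differences of 0.13 and 0.12.

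The promoters of several of these genes are shown because they let the members be read beside their sequence. CRX, the homeodomain factor of photoreceptors, binds a core written TAATCC, which on the other strand reads GGATTA. Each sequence runs from 250 bases before to 50 bases after the RefSeq start on GRCm38.p6, 5′ to 3′ along the gene, with that core in capitals. Sag lies at chr1:87803430-87803729 on the plus strand, Cnga1 at chr5:72642703-72643002 (minus), Gngt1 at chr6:3993758-3994057 (plus) and Guca1a at chr17:47400557-47400856 (minus). Aipl1, a photoreceptor chaperone, lies at chr11:72037460-72037759 (minus), the cone transducin gene Gnat2 at chr3:108092816-108093115 (plus) and Crx itself at chr7:15879906-15880205 (minus). Abca4, at chr3:122044210-122044509 (plus), is the member shown that holds the core and did not differ by 1 unit.
Sag: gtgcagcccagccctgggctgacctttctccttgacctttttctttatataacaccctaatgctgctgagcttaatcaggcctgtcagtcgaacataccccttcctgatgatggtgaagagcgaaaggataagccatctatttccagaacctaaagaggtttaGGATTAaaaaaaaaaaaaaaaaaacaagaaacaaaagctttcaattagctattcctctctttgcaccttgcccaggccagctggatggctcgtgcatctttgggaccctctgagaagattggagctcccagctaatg
Cnga1: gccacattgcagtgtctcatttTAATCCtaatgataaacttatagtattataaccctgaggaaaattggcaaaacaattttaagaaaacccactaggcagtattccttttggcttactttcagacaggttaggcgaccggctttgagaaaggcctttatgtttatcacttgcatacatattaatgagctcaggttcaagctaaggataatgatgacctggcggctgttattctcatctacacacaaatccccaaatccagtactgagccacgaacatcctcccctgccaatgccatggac
Gngt1: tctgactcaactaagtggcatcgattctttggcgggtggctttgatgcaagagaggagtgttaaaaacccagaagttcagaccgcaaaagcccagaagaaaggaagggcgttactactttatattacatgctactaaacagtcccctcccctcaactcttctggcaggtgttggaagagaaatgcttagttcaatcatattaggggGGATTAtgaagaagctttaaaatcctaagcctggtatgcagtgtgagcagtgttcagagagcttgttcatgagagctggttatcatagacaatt
Guca1a: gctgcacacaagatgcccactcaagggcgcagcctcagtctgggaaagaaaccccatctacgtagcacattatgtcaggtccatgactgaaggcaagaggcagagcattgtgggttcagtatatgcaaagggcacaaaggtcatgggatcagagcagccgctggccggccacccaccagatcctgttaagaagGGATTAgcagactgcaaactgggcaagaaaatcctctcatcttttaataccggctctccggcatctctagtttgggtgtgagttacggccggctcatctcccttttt
Aipl1: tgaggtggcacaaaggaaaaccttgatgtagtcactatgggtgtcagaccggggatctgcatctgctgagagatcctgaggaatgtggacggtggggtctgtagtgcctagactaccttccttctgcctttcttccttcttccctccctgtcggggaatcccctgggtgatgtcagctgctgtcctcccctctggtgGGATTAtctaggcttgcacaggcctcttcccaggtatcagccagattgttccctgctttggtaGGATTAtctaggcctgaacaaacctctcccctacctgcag
Gnat2: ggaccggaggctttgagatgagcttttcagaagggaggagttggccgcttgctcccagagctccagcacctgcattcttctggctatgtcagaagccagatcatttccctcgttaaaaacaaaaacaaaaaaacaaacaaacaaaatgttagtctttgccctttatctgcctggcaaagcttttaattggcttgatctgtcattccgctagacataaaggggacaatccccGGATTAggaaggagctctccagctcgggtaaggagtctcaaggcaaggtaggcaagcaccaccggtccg
Crx: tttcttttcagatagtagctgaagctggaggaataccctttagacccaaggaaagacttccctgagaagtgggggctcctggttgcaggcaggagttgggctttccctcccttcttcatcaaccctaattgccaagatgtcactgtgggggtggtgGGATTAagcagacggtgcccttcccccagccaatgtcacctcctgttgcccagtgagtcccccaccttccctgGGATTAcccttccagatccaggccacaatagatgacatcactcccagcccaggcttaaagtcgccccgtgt
Abca4: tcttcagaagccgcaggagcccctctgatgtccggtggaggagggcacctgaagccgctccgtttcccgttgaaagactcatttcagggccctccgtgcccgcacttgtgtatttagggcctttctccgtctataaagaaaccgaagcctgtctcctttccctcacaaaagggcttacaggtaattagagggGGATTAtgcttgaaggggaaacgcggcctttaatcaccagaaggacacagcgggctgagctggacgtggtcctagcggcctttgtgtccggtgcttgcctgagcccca

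The core begins 44 bases before the start in Gngt1, 57 in Guca1a, 53 in Aipl1 (with a second copy after the start), 58 in Abca4 and 87 in Sag. It begins 19 bases before the start in Gnat2, 94 and 21 in Crx, and 228 in Cnga1. Of the rod list, 15 genes had a promoter in the RefSeq table and 8 (53.3%) held the core on either strand, against 2320 of 32851 (7.06%) of all promoters of this length. The outer segment list held it in 6 of 17 promoters (35.3%), the cone list in 2 of 9 (22.2%), the pigment epithelium list in 6 of 27 (22.2%) and the melanosome list in 4 of 17 (23.5%). Within the rod list 4 of 8 higher genes held it, and 4 of 7 genes that were not higher. Those 7 include Gucy2e, which held it, and Grk1, which did not, and both lay below the filter. They also include Cngb1, which held it and missed the rule by its size alone. The short site of the rod factor NRL, searched as TGCTGA and TCAGCA, was in 5 of 15 rod list promoters (33.3%) and in 19.5% of all promoters. Neither motif is contained in the other. A match describes these letters and is not a binding site.

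Genes of the outer segment membrane and connecting cilium were higher in 10 of the 13 that passed the filter, with a median difference of 1.78 (background 0.629% of genes). Rp1, a microtubule protein of the outer segment axoneme, differed by 2.93 (SE 0.48). Its values were 4.41, 4.76, 5.11, 5.20 and 5.61 on the Gnat1-low arrays and 5.84 (median 7.87) to 9.29 on the Gnat1-high arrays. The lowest Gnat1-high value, in B6-D2 congenic replicate 2, was only just above the highest Gnat1-low value and was more than 2 units under the next Gnat1-high value. The mean of the Gnat1-low arrays, 5.02, lay under the filter value of 5.65, and a second probe set below the filter differed by 0.04. With a Gnat1 threshold of 11 Rp1 did not meet the rule. The scaffold gene Mpp4 differed by 2.44 (SE 0.37), the cadherin gene Cdhr1 by 2.23 (SE 0.30), Rp1l1 by 2.21 (SE 0.38) and Aipl1 by 2.10 (SE 0.30). Rom1, a tetraspanin of the disc rim, differed by 1.78 (SE 0.29).

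Prom1, Rpgrip1 and Unc119 were the members of that list that did not meet the rule. Prom1, a membrane protein of discs and of many epithelia, read 10.33 to 11.04 on the Gnat1-low arrays and 10.54 to 11.30 on the Gnat1-high arrays, a difference of 0.29 (SE 0.16). Rpgrip1, a cilium scaffold gene, differed by 0.18 (SE 0.12) on its brightest probe set, whereas a second, dimmer probe set that passed the filter was higher by 1.87. The array thus gives different answers for this gene by probe set. Crx showed the same kind of disagreement, with 1.87 on its brightest probe set and 0.52 on the other, as did Aipl1, with 0.82 on the other.

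Cone genes were higher too. Of the 6 cone genes that passed the filter, 4 were higher (background 0.629% of genes) and the median difference was 1.03. Gnat2, the cone transducin alpha subunit, read 6.02, 6.16, 6.65, 6.84 and 6.89 on the Gnat1-low arrays and 6.90 (median 7.86) to 8.53 on the Gnat1-high arrays. Its ranges nearly touched, and the difference was 1.31 (SE 0.26), or 2.48-fold. The cone phosphodiesterase subunit genes Pde6c and Pde6h differed by 1.16 (SE 0.20) and 1.05 (SE 0.18), and the medium wavelength opsin gene Opn1mw by 1.00 (SE 0.18). The Gnat1-low means of Pde6h and Opn1mw lay under the filter value, and a second probe set of Pde6h gave 0.70. Opn1mw lost the call with a Gnat1 threshold of 9, after quantile normalization, with the actin gap as a covariate, in the C57BL/6J and B6-Lyst arrays alone, and without B6-Lyst replicate 2, any 1 of the 3 B6-albino arrays or B6-D2 congenic replicate 1. Pde6h lost it with a threshold of 9, with probe sets averaged, and without B6-albino replicate 2 or B6-D2 congenic replicate 1, and Pde6c lost it with a threshold of 11. Cone arrestin, Arr3, differed by 0.28 (SE 0.11), and 2 dimmer probe sets of it below the filter differed by 0.73 and 0.86.

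Regressed on Gnat1 itself within strains, the median slope was 0.74 log2 units per log2 unit of Gnat1 for the 18 rod genes other than Gnat1, 0.80 for the outer segment genes and 0.46 for the cone genes. Single genes of the rod list ran from 0.01 for Rgs9 to 1.11 for Cnga1. The median slope was 0.03 for Müller glia genes and 0.05 for pigment epithelium genes. These slopes are on the scale of the deposited values and are not ratios of cells.

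The photoreceptor transcription factors differed in how far they followed Gnat1. Nrl, the factor that sets rod identity, read 6.66, 6.88, 7.30, 7.55 and 7.69 on the Gnat1-low arrays and 8.47 (median 9.99) to 10.57 on the Gnat1-high arrays, a difference of 2.33 (SE 0.29). Neurod1 differed by 2.42 (SE 0.43) and Crx by 1.87 (SE 0.33). These 3 were the higher genes among 9 that passed the filter (background 0.629% of genes), and the list median was 0.39. Rorb was ordered above in all 4 strains with a difference of 0.77. Esrrb was ordered above in 3 strains with 0.39 on its brightest probe set, and 0.85 and 0.02 on others that passed the filter. Otx2, which the pigmented epithelia also use, lay between 9.18 and 10.004 on the Gnat1-low arrays and between 8.95 and 10.25 on the Gnat1-high arrays, with a difference of 0.07 (SE 0.15).

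Transcripts of other retinal neurons were also among the higher genes (background 0.629% of genes). Nefl, the light neurofilament subunit of ganglion cell axons and of other neurons, read 4.84, 4.93, 6.05, 6.32 and 7.08 on the Gnat1-low arrays and 7.72 (median 8.74) to 9.97 on the Gnat1-high arrays. The groups did not overlap, and the difference was 2.49 (SE 0.25). Nefl and Nefm, with 1.02 (SE 0.14), were the 2 higher genes of 9 on the ganglion cell list, whose median was 0.61. Of those 9 genes 7 had a positive difference, and the lowest was -0.27 for Rbpms. Of 10 genes of horizontal and amacrine cells, Gad1, which makes GABA, differed by 1.65 (SE 0.28). The calcium binding protein gene Calb2 differed by 1.21 (SE 0.15), whereas the list median was 0.01. Only 5 of those 10 genes had a positive difference, and the lowest was -0.22 for Slc6a9. Pcp2 and Cabp5, genes of bipolar cells, differed by 1.41 (SE 0.31) and 1.03 (SE 0.26), and the other 9 of 11 members on that list did not meet the rule. Nefm and Cabp5 lost the call with a threshold of 9, and Nefm, Gad1 and Calb2 with a threshold of 11. Cplx4 and Cplx3, complexins of retinal ribbon synapses, differed by 1.92 (SE 0.29) and 1.64 (SE 0.27) among 9 synapse genes tested, with a list median of 0.56.

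Of the 114 retinal neuron list genes named on the array, 28 lay below the filter and were not tested. In 3 of those 28 the difference was at least 1: Calb1 (1.42), Gjd2 (1.14) and Slc17a6 (1.08), which encode a calcium binding protein of horizontal cells, a neuronal gap junction channel and a glutamate transporter of ganglion cells.

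**Figure D3:**
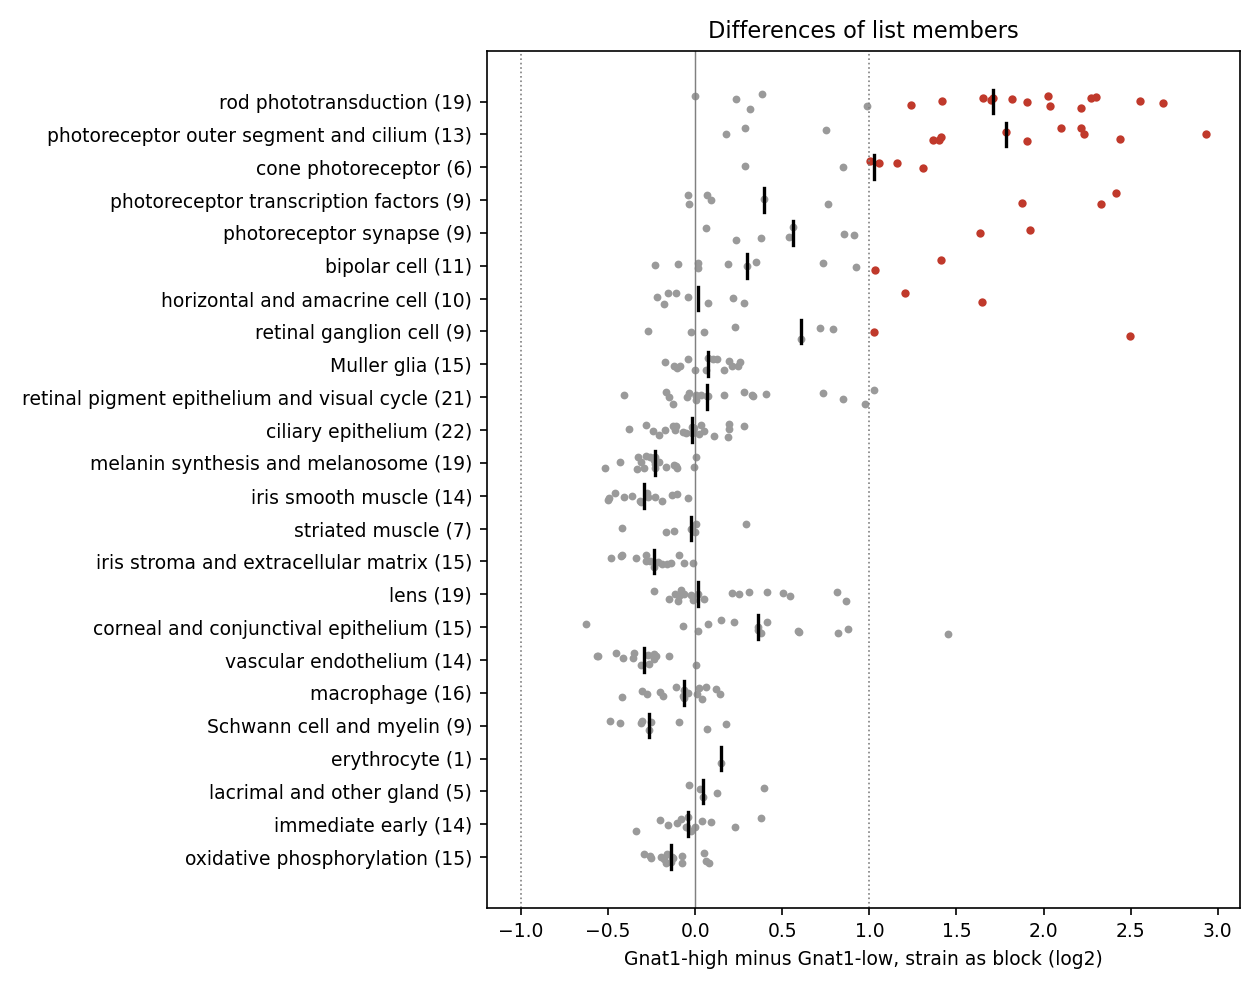
Each point is 1 gene that passed the filter, placed by its Gnat1-high minus Gnat1-low difference with strain as a block (x axis, log2), and each line of points is 1 gene list with its number of genes. Red points are higher by the rule, black bars are list medians and the dotted lines lie at 1 and -1. Red points occur in the 8 retinal neuron lists and in none of the other 16 lists, where 0.629% of all genes were higher.

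The other 44 higher genes were on none of the 24 lists. The largest were Mir124-2hg, a host transcript of the neuronal microRNA miR-124, with 2.81 (SE 0.45), Snap25, a vesicle fusion protein of neurons, with 2.52 (SE 0.29), and the secretory granule gene Chgb with 2.11 (SE 0.34). Named after their values were seen, further genes with known roles in photoreceptors were Mak, a ciliary kinase (1.92), Reep6 (1.86), Crb1, a polarity protein (1.79), Rbp3, the retinoid carrier between retina and pigment epithelium (1.47), and Pcare, a cilium actin regulator (1.29). Slc12a5, the chloride exporter of neurons, was higher by 1.85 (SE 0.27). None of the 83 genes was on a list of another tissue. Of the 13104 tested genes on no retinal neuron list only 44 were higher, so that absence says little.

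The genes whose values were most like those of Gnat1 over the 12 arrays, after each strain's mean was removed, were Guca1a (Pearson's r 0.99), Pde6h (0.99), Aipl1 (0.98), Pdc (0.98), Rtbdn (0.98), Sag (0.98), Rom1 (0.98) and Nxnl2 (0.98). All 8 were higher by the rule, with differences from 1.05 to 2.10. The 4 genes most opposed to Gnat1 were Tra2a (r -0.95), Khdc4 (-0.90), Six3os1 (-0.89) and Phldb2 (-0.89), and their differences were small, from -0.18 to -0.27. These values were chosen by their likeness and describe arrays that share their samples and their scaling.

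No retinal pigment epithelium or visual cycle gene that passed the filter was ordered by the split in all 4 strains. Of all genes only 2.47% were ordered above and 1.87% below in every strain, so a count of 0 says little in a list of this size. Of 21 that passed the filter, 0 were higher and 0 lower (0.629% and 0% of all genes), and the list median was 0.07. The list as a whole lay between 8.42 and 9.37 on the Gnat1-low arrays and between 8.38 and 9.71 on the Gnat1-high arrays. The members with the largest positive differences were Rpe65, the isomerase that regenerates visual chromophore, at 1.02 (SE 0.35), the opsin-like gene Rgr at 0.97 (SE 0.40), Pon1 at 0.85 (SE 0.37) and Lrat, which esterifies retinol, at 0.74 (SE 0.34), and the most negative was the collagen gene Col8a2 at -0.41 (SE 0.28). Other visual cycle genes differed by less, with 0.28 for the retinol dehydrogenase gene Rdh10, 0.16 for the opsin Rrh and 0.00 for the retinol dehydrogenase gene Rdh5. Ttr, the transthyretin carrier, differed by 0.41 (SE 0.18). The first 4 differences moved with single arrays: without B6-albino replicate 2 they were 0.54, 0.53, 0.34 and 0.21, and without B6-D2 congenic replicate 3 they were 1.47, 1.41, 1.29 and 1.10.

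Their values differed in pattern by strain. In B6-albino, Rpe65 read 10.17 and 9.21 on the Gnat1-high arrays and 7.23 on the Gnat1-low array. In C57BL/6J it read 7.45 on the Gnat1-high array against 6.24 and 6.13, and in B6-Lyst 7.69 and 7.11 against 6.72. In B6-D2 congenic the order turned, with 8.01 and 8.33 on the Gnat1-high arrays and 8.48 on the Gnat1-low array. The strain difference of Rpe65 was thus largest in B6-albino (2.46), with 1.26 for C57BL/6J, 0.68 for B6-Lyst and -0.31 for B6-D2 congenic. Lrat behaved alike, with 2.32 for B6-albino, 0.51 for B6-Lyst, 0.48 for C57BL/6J and -0.36 for B6-D2 congenic. In B6-albino the order of the Gnat1-high arrays was also not that of Gnat1, since replicate 1 had the highest Rpe65, Rgr, Lrat and Ttr of all 12 arrays and replicate 3 the highest Gnat1. Of the 21 genes, 11 had a positive difference in the 3 other strains and a negative one in B6-D2 congenic, as did 5 of 15 Müller glia genes. That pattern was seen in these data and was not counted over all genes, so it is not read as particular to these lists. Without B6-D2 congenic replicate 3, the only Gnat1-low array of that strain, the median of the pigment epithelium list was 0.39.

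**Figure D4:**
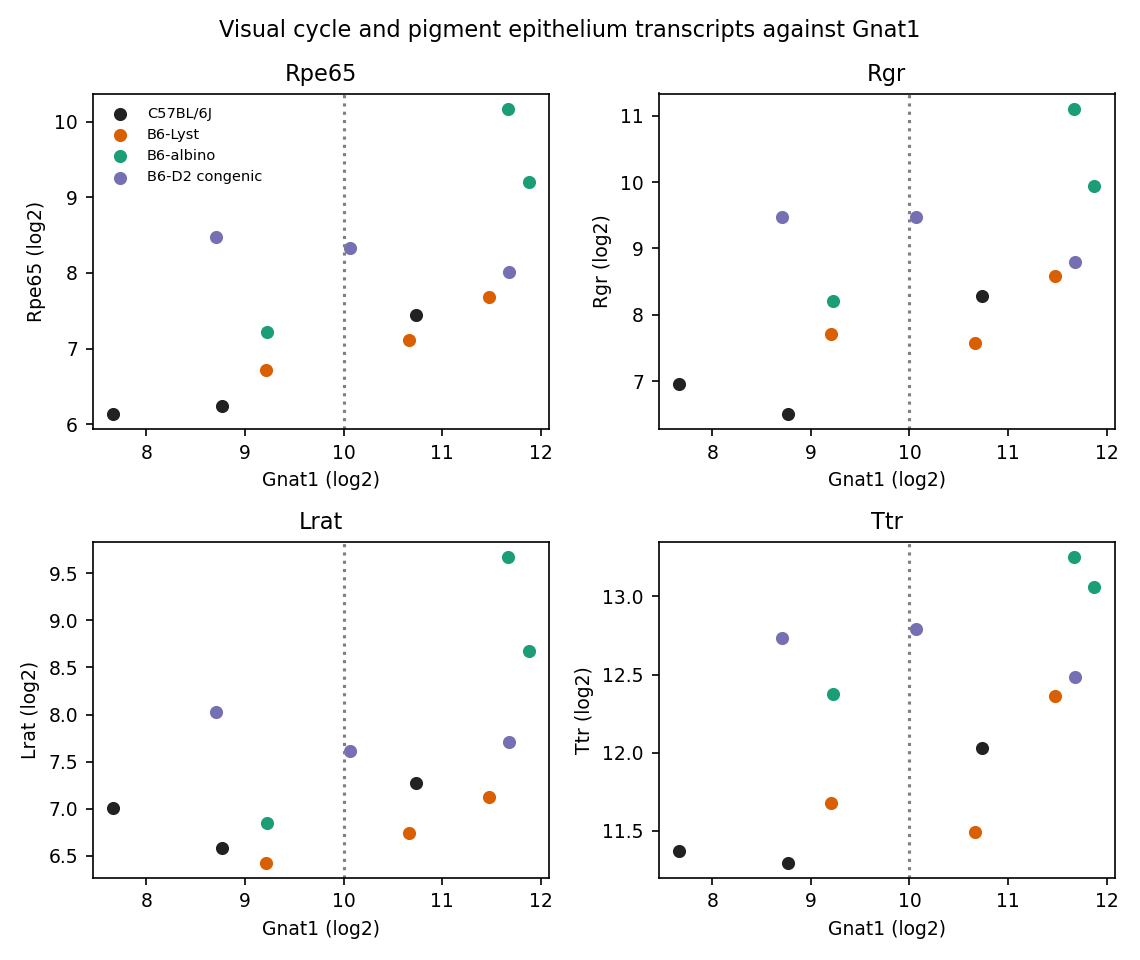
Deposited log2 values of Rpe65, Rgr, Lrat and Ttr (y axes, 1 panel each) against Gnat1 (x axis, log2) on the 12 arrays, coloured by strain, with a dotted line at the Gnat1 value of 10. In B6-D2 congenic, Gnat1-high replicate 1 lies below the Gnat1-low array in each panel, whereas both Gnat1-high B6-albino arrays lie above their Gnat1-low partner in each panel.

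Müller glia genes as a list followed Gnat1 little, with a median difference of 0.07 against -0.06 for all genes. Of 15 tested, 0 were higher, where 0.629% of all genes were, so a count of 0 says little in a list of this size. Rlbp1, the retinaldehyde binding protein of Müller glia and pigment epithelium, read 9.33, 9.35, 9.54, 9.68 and 10.13 on the Gnat1-low arrays and 9.38 (median 9.92) to 10.45 on the Gnat1-high arrays, with a difference of 0.26 (SE 0.14). Glul, the glutamine synthetase of glia and of other cells, differed by -0.12 (SE 0.14). Ciliary epithelium genes gave 0 higher of 22 tested with a median of -0.02, and the highest difference there was 0.28 for the carbonic anhydrase gene Car2.

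Genes of the pigmented and contractile iris were alike or slightly lower. The melanosome list had 0 of 19 genes higher (0.629% of all genes) and a median of -0.23. Tyrp1 lay at -0.00 (SE 0.13), Dct, another melanin enzyme, at 0.01 and Mlph, a melanosome transport protein, at -0.52 (SE 0.18). Smooth muscle genes had a median of -0.29 and stroma genes -0.24, and no member of either list that passed the filter had a positive difference, where 66.4% of all genes tested lay below 0. The most negative members were Smtn, smoothelin of contractile smooth muscle, at -0.50 (SE 0.23) and Mgp, a matrix inhibitor of calcification, at -0.48 (SE 0.29). Scaled to the 75th percentile of each array, the median of all genes moved from -0.06 to 0.00 and these medians to -0.17, -0.23 and -0.17. Of all genes, 247 (1.87%) were ordered below in every strain at any size and 326 (2.47%) above. The 2 largest of the ordered lower differences were Bst2, an interferon inducible membrane protein, at -0.69 (SE 0.17) and Pdlim7 at -0.56 (SE 0.15). Among the genes of the lists for iris tissue, Col3a1, a fibrillar collagen of stroma, was ordered below in every strain, at -0.42 (SE 0.14).

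Lens and corneal transcripts varied widely between arrays. No gene of either list met the rule, but only 0.629% of all genes were higher, so this says little in lists of these sizes. The mean of the 19 lens genes lay between 8.03 and 11.29 on the Gnat1-low arrays and between 7.44 and 12.63 on the Gnat1-high arrays, and 0 of the 19 were higher or lower by the rule. Cryaa, the lens alpha crystallin, differed by -0.15 with an SE of 0.87, and the gamma crystallin gene Crygf by 0.86 with an SE of 0.81. The mean of the 15 corneal genes lay between 7.22 and 9.08 on the Gnat1-low arrays and between 7.21 and 10.65 on the Gnat1-high arrays. Of the 15 genes 13 had a positive difference, with a list median of 0.36, or 0.03 without B6-D2 congenic replicate 2, and the largest was 1.45 (SE 1.00) for the mucin gene Muc4. Krt12, the keratin of corneal epithelium, was at 12.86, 13.81 and 10.45 on 3 arrays, C57BL/6J replicate 1, B6-D2 congenic replicate 2 and B6-albino replicate 1, and at 5.96 to 7.12 on the other 9. Of those 3 arrays 2 were Gnat1-high, and without them 105 genes were higher in place of 83. The rod list median was 1.98 without them. With the lens mean as a covariate 83 genes were higher and the rod median was 1.72, and with the corneal mean as a covariate 91 were higher and it was 1.85.

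**Figure D5:**
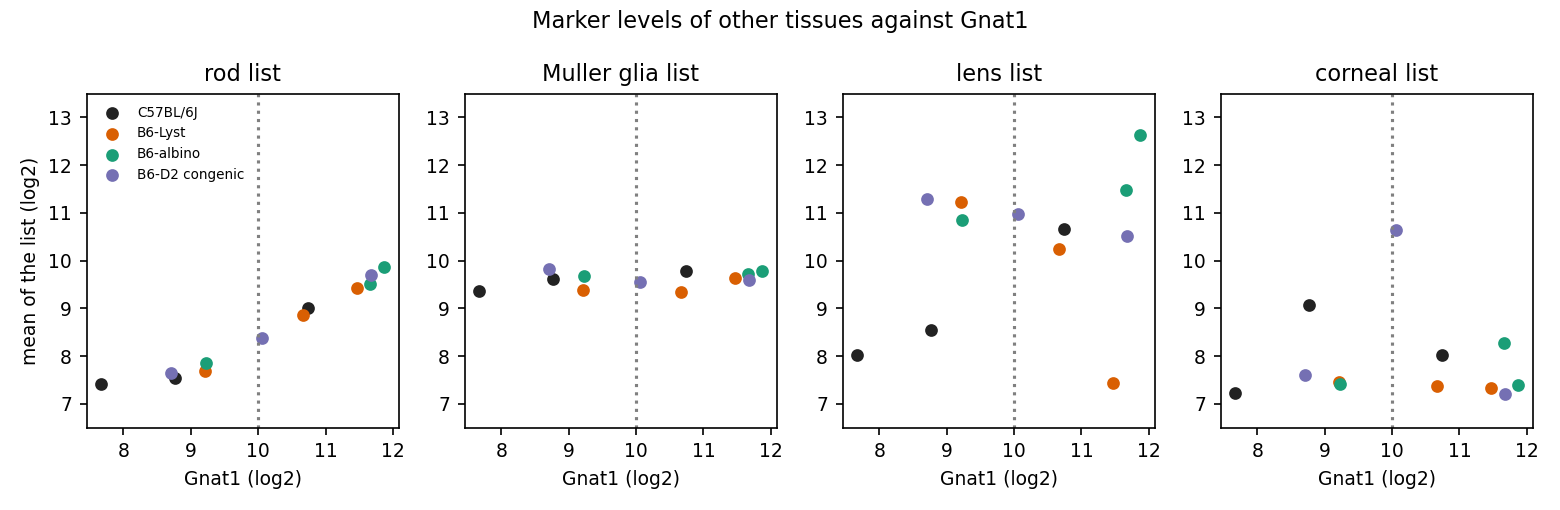
Mean log2 level of the rod, Müller glia, lens and corneal lists (y axis, shared by the 4 panels) against Gnat1 (x axis, log2) on the 12 arrays, coloured by strain, with a dotted line at 10. The rod list, Gnat1 included, is lowest at 7.42 and highest at 9.86 along Gnat1, the Müller list stays between 9.35 and 9.82, and the lens and corneal lists range widely on both sides of the line.

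Measures of array chemistry, which the rule did not use, were tested between the kinds by permuting the labels within strains (81 arrangements, two-sided, smallest possible p 0.0123). The poly-A control transcripts differed by 0.21 (exact permutation p = 0.407) and the hybridization controls by 0.01 (exact permutation p = 0.84). The gap between 3′ and 5′ probe sets, a measure of RNA length, differed by 0.24 for actin (exact permutation p = 0.691) and by 0.16 for GAPDH (exact permutation p = 0.642). Adjusted over the 4 measures, every p was 0.84. The poly-A controls stood at 7.20 to 8.04 on the C57BL/6J arrays and at 4.98 to 5.92 on all others. Gnat1-low arrays B6-Lyst replicate 1, C57BL/6J replicate 1, B6-albino replicate 2 and B6-D2 congenic replicate 3 had actin gaps of 1.84, 1.97, 2.03 and 2.18. All of these lay under every Gnat1-high array (2.30 to 2.72). The widest gap, 4.30, belonged to Gnat1-low array C57BL/6J replicate 3, which also had the lowest Gnat1. Without that array 86 genes were higher and the rod list median was 1.71, and with the actin gap as a covariate these were 78 and 1.70. Without C57BL/6J replicate 3 the actin difference was 0.53 (exact permutation p = 0.0185), and without C57BL/6J replicate 2 it was 0.51 (exact permutation p = 0.037), neither p adjusted. Fewer arrangements exist with an array left out, and each of these p was the smallest its arrangements allow.

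Strains were compared with a moderated F test in limma over all 27022 probe sets tested. With the Gnat1 group as a term, 428 probe sets (1.58%) passed an adjusted p of 0.05, and without it 565 (2.09%), of which 399 were shared. The first count moved with single arrays and was 206 without B6-Lyst replicate 1, 247 without B6-Lyst replicate 3, 249, 263 and 268 without B6-albino replicates 1, 2 and 3, and 269 without C57BL/6J replicate 2. At the level of genes these were 247 (1.87%) and 299 (2.27%). None of the 86 retinal neuron genes was called in limma's F test with or without the term, although 11 and 8 of them had an unadjusted p under 0.05, and the smallest adjusted p were 0.0579 and 0.0535. For the pigment epithelium list, 14 of 21 genes had an unadjusted p under 0.05 with the term, and 1 was called, the phagocytosis receptor gene Mertk. Its strain mean was lowest for B6-D2 congenic (7.54), then 7.95 for B6-albino, 8.07 for C57BL/6J and 8.58 for B6-Lyst (limma adjusted p = 0.0454 with the term and 0.0344 without).

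None of Rpe65, Rgr, Lrat, Ttr, Rdh10, Rrh, Rdh5 and Stra6 was called among strains (limma adjusted p from 0.0583 to 0.605 with the term). Rpe65 averaged 8.87 for B6-albino and 8.27 for B6-D2 congenic, against 7.17 for B6-Lyst and 6.61 for C57BL/6J (limma adjusted p = 0.117). Ttr averaged 12.89, 12.67, 11.84 and 11.57 in the same order (limma adjusted p = 0.0583). These are plain averages over the arrays of a strain, and C57BL/6J held fewer Gnat1-high arrays than the others. Both p come from the fit with the Gnat1 term. Sox9, a transcription factor of Müller glia, passed with the Gnat1 term (limma adjusted p = 0.0256) and not without it (0.0552). Gpnmb, mutated in B6-D2 congenic, averaged 9.33 there and 12.48 to 12.97 in the other strains (limma adjusted p = 9.1e-05), the direction that the strain label gives.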

How the data were processed

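Per the labels, each array measured biotinylated cRNA from pooled irides. The deposited table holds log2 values, 1 per probe set and array, as their range shows. How the authors corrected, normalized and summarized them is not given in the sources used; no step was added to them. Precision is limited by the number of arrays. Gene names came from the supplied platform annotation, updated through RefSeq gene names of GRCm38.p6: of 45037 probe sets other than controls, 34945 had 1 symbol, 932 several and 9160 none, and 34741 matched. Probe sets with a mean over all arrays under the 40th percentile (5.653) were left out. This left 27022 probe sets and 13190 genes, each represented by its brightest probe set over all arrays.

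Arrays were split at a Gnat1 value of 10, and differences with strain as a block and their standard errors came from limma 3.58.1 in R 4.3.3. A gene was called higher at a difference of at least 1 with every Gnat1-high array above every Gnat1-low array of its strain, and lower by the mirror rule. No p-value is given for the split. Standard errors over 7 and 5 arrays cover the spread between pooled samples. The F test among strains used limma with an intensity trend and Benjamini-Hochberg adjustment over all probe sets, with the Gnat1 group as a term and without it. Technical measures were tested by exact permutation within strains. Scripts were tested on simulated data.

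The split, the members and the gene lists were chosen with earlier results of these data known. The rule for genes to be named took Gnat1 and the rod list, the 6 members of each retinal, epithelium, lens, corneal or melanosome list and the 3 of each other list with the largest absolute difference, the 12 largest higher genes, the 8 most alike and 4 most opposed to Gnat1, and epithelium genes that differed among strains. The text prints only some of these, and it adds others chosen for their known role or after their values were seen (among them Krt12, Cryaa, Car2, Otx2, Prom1, Col3a1, Dct and those on no list). Samples with the same replicate number in different strains did not deviate together (18 pairs, correlations from -0.434 to 0.389, 6 over 0.1), so the numbers were not used as pairs. Alternatives changed the Gnat1 threshold, blocks, scaling, filter, probe set choice and covariates, and left out each array in turn.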

Additional observations from a re-analysis of the deposited data

Results flagged for a closer look

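In the photoreceptor genes, 1 array stood apart from the others of its kind in several members. B6-D2 congenic replicate 2, the Gnat1-high array nearest the threshold, was low for Rp1 (5.84), Pde6c (6.396) and Rom1 (6.98). Among the Gnat1-low arrays, C57BL/6J replicate 3 was low for Guca1a (6.19), B6-Lyst replicate 1 was high for Pde6g (7.31) and low for Otx2 (9.18), and B6-albino replicate 2 was high for the mean of the photoreceptor transcription factors (7.53). An array was set apart where its gap to the nearest other array of its kind, divided by the range of the kind, passed Dixon's critical value, which chance passes in about 1 group in 20. Both kinds were screened for every named gene, 24 list means and 4 technical measures. Across that many groups chance alone would set a number of arrays apart.

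Other tissues gave single arrays far from their kind. Krt12 was at 12.86 on C57BL/6J replicate 1, where the mean of the corneal list was 9.08, and the corneal mean was 10.65 on B6-D2 congenic replicate 2. Cryaa was low on B6-Lyst replicate 2 (8.50), the smooth muscle mean was low on B6-albino replicate 3 (9.72) and the macrophage mean was high on B6-Lyst replicate 1 (9.81). Of the technical measures, the poly-A controls were high on C57BL/6J replicate 2 (8.04) and the hybridization controls low on B6-Lyst replicate 1 (9.32). The 3′ to 5′ gaps of actin (4.30) and GAPDH (4.01) were wide on C57BL/6J replicate 3.

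The Gnat1-high minus Gnat1-low difference had opposite signs in 2 strains for several genes, with every array on its side, and these strain differences were not tested. Between B6-albino and B6-D2 congenic the difference itself differed by 2.77 for Rpe65, 2.85 for Pon1, 2.68 for Lrat, 0.774 for Rlbp1 and 0.572 for Otx2. Between B6-Lyst and B6-D2 congenic it differed by 1.63 for Abca4 and 0.86 for Gnb1. Between C57BL/6J and B6-Lyst it differed by 4.74 for Cryaa, 6.64 for Crygf and 1.56 for Car2.

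Among 4471 probe sets without a single gene name, 14 (0.313%) were higher by the same rule and 0 (0%) lower.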

How the results depend on the processing

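The 83 higher genes numbered 59 to 116 over the settings other than leaving out an array: 81 and 68 with Gnat1 thresholds of 9 and 11, 98 with a split at the median, 90 without the strain block, 89 and 82 after 75th percentile and quantile scaling, 59 with a filter at the 60th percentile, 75 with probe sets averaged, 70 in C57BL/6J and B6-Lyst and 116 in B6-albino and B6-D2 congenic (these last 2 pairs of strains, the 9 mutant arrays alone with 89, and the strain test without the Krt12-high arrays were chosen after the data were seen). Leaving out each array gave 74 to 98. At a threshold of 9 every B6-Lyst and B6-albino array was Gnat1-high, and at 11 no C57BL/6J array was. The order rule was not applied in those strains, nor in a strain whose only array of a kind was left out. With a replicate block, for numbers that do not pair the samples, 88 genes were higher. Of 46 named genes that were higher, 42 met the rule with a threshold of 9 (not Pde6h, Opn1mw, Cabp5, Nefm), 38 with 11 (not Rp1, Pde6c, Gad1, Calb2, Nefm, Mak, Pcare, Slc12a5), 42 with probe sets averaged (not Pde6h, Gad1, Nxnl2, Rbp3), 44 with the actin gap as a covariate (not Opn1mw, Nefm), 42 in C57BL/6J and B6-Lyst alone (not Opn1mw, Cabp5, Nxnl2, Pcare) and 41 to 46 without each array in turn; the filter at the 60th percentile left 40 of the 46, which met it. Lower genes numbered 2 with a threshold of 11. Without each array in turn the pigment epithelium median ran from -0.011 to 0.39, the actin 3′ to 5′ difference from 0.058 to 0.53 (its exact permutation p fell under 0.05 without C57BL/6J replicate 2, 0.51 and p = 0.037, or replicate 3, p = 0.0185) and the probe sets that differed among strains from 206 to 551. These numbered 250 with a filter at the 60th percentile, 226 without the 3 Krt12-high arrays and 362 with the replicate block; fewer probe sets or arrays enter the first 2, and no other cause was tested. No value in these settings reversed its direction where it was called. The number of arrays and values near the filter limit what can be seen.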

Other observations

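Lists of vessel, nerve and immune cell transcripts had median differences at or below 0, where that of all genes was -0.06. Of all genes 0.629% were higher, so a count of 0 says little in lists of these sizes. Of 14 endothelial genes tested, 0 were higher and the median difference was -0.29, and of 9 Schwann cell and myelin genes 0 were higher with a median of -0.26. The macrophage list had 0 of 16 genes higher with a median of -0.06. Yet 9 of its 16 genes differed among strains in limma's F test with the Gnat1 group as a term, against 1.87% of all genes. In the same test 3 of 5 gland genes and 3 of 14 immediate early genes differed among strains. Immediate early genes (0 of 14 higher, median -0.04), genes of oxidative phosphorylation (0 of 15, median -0.14), striated muscle genes (0 of 7, median -0.02) and gland genes (0 of 5, median 0.05) completed the lists, with a single erythrocyte gene tested, at 0.15.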
